A study of Homo sapiens with 12 samples.

Results

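The replication-dependent histone genes encode the H1, H2A, H2B, H3 and H4 proteins that package newly copied DNA. They were taken as the protein-coding genes with the symbols H1-1 to H1-6 or a symbol beginning with H2AC, H2BC, H3C or H4C, matched by Ensembl identifier, which gave 70 of the 62703 identifiers measured. The 70 genes comprised 6 of the H1 class, 17 of H2A, 19 of H2B, 13 of H3 and 15 of H4. On GRCh38, 55 of them lay on chromosome 6, between positions 25726132 and 27893843, and 13 lay on chromosome 1. H4C16 on chromosome 12 and H2BC12L on chromosome 21 stood alone.

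RNA of HK2 cells, an immortalised line of human proximal tubular epithelium grown with 10% fetal bovine serum, was profiled as 12 libraries, with 3 for each of 4 groups. NG cells received a control vector in 5.5 mM glucose, and si-FGF9 cells were transfected in the same glucose with an siRNA against the growth factor FGF9. HG cells were exposed to 50 mM glucose, and HG+OE-FGF9 cells received 50 mM glucose together with a lentiviral vector that overexpresses FGF9. The study's text also describes NG as a mannitol medium and the overexpression vector as adenoviral. The labels were followed here, and whether NG medium held mannitol is uncertain. Whether HG cells carried a control vector, and whether si-FGF9 cells had a non-targeting siRNA as their control, is not given in the sources used here, so vector or transfection cannot be told apart from the named treatment. The labels number the replicates but do not say that they were separate cultures, so the p-values measure the spread between these samples, which may be technical. In bulk RNA, fewer cells that express a gene and less RNA per cell cannot be told apart.

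Histone mRNAs of this kind differ from other mRNAs at their 3′ end. They normally carry no poly(A) tail and end shortly after a short stem-loop, which is bound by the stem-loop binding protein SLBP, and they accumulate while DNA is copied in S phase. Some of the same genes also give longer, polyadenylated transcripts that run past the stem-loop or splice around it, particularly in cells that have stopped dividing. How the RNA was selected before sequencing (by poly(A) tail or by removal of ribosomal RNA) is not given in the sources used here.

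The stem-loop was searched for in the GENCODE 29 transcripts by the consensus of the histone stem-loop, on the strand of the RNA only. It opens with GG and closes with CC, with the run TTTT in its centre and AG after the next base, and leaves 2 bases free in each arm of the stem. It was found in 30 of the 70 histone genes and in 30 of 19881 other protein-coding genes (0.15%). The longest transcripts of the histone genes were shorter, with a median of 512 bases against 3172 bases. For 32 histone genes, H2BC12 and H4C12 among them, the longest annotated transcript was the coding sequence alone, so that their 3′ ends could not be searched. The sequence in each annotated RNA, written as DNA with the stem-loop in capitals and 5 flanking bases on each side, is shown for members that carry the results.
H2AC18: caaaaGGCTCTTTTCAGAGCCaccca
H2AC6: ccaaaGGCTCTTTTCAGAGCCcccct
H2BC5: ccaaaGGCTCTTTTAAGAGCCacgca
H4C11: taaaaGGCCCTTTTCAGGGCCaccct
H4C14: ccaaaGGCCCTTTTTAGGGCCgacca
In H2AC18 and H4C11 the longest annotated transcript stopped 35 and 6 bases after the stem-loop. In H2AC6 and H4C14 an annotated transcript went on for 1128 and 1167 bases. A transcript that ran at least 100 bases past the stem-loop, or that was spliced, was annotated for 26 of the 70 genes, here called genes with an extended transcript. The 32 genes annotated by their coding sequence alone count among the other 44. Extended transcripts were annotated for 0 of 6 H1, 3 of 17 H2A, 11 of 19 H2B, 6 of 13 H3 and 6 of 15 H4 genes.

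Promoter windows of 300 bases, from 250 before to 50 after the start, were taken from RefSeq on GRCh38.p14 and were found for 64 of the 70 genes (68 windows). A TATA box (TATAAA on either strand) was present in 66.2% of the histone windows and in 11.5% of all 35116 promoter windows. The octamer ATTTGCAT, the site of the factor POU2F1 in H2B promoters, was present in 75.0% of H2B and 68.8% of H2A windows, in 1 of 13 H3 windows, in 0 of 6 H1 and 0 of 13 H4 windows, and in 1.77% of all windows. CCAAT was present in every H1, H2A, H2B and H3 window and in 23.1% of H4 windows, against 34.6% of all. The windows of 4 genes are shown, for genes that stand out in the results, with TATAAA, ATTTGCAT and CCAAT on either strand in capitals. Some CCAAT matches may be chance matches of so short a motif.
H1-2, chr6:26056421-26056720, minus strand: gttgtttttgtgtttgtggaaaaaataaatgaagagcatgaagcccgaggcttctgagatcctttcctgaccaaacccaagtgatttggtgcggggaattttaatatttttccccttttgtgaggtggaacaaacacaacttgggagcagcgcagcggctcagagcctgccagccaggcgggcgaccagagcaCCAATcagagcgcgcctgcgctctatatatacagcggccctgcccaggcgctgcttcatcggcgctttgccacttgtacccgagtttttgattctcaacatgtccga
H2AC6, chr6:26123922-26124221, plus strand: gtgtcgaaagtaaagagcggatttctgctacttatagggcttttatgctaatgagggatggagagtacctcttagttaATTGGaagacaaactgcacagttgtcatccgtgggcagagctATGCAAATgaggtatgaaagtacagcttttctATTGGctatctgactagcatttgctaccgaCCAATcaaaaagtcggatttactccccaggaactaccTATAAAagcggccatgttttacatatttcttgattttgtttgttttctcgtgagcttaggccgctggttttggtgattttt
H2BC12, chr6:27146806-27147105, minus strand: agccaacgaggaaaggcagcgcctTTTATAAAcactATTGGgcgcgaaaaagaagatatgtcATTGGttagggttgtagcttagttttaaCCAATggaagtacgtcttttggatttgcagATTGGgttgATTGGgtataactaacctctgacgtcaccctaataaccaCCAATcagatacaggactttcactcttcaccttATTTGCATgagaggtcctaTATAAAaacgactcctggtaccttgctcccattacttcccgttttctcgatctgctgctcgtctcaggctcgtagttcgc
H4C11, chr6:27823842-27824141, plus strand: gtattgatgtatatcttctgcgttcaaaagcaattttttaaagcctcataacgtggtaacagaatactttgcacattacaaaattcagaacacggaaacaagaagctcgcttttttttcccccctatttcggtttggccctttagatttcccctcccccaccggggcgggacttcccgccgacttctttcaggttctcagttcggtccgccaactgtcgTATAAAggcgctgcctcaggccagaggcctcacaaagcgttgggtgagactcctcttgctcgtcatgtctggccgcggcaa
The H2AC6 window overlapped that of H2BC4 on the other strand by 255 bases. Such divergent windows were shared by 11 pairs of an H2A and an H2B gene, 8 of them with the octamer.

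The levels were carried by few genes. Of the 70 genes, 6 were listed at 0 in all 12 libraries, namely H1-1, H2AC1, H2AC19, H2BC1, H2BC12L and H4C7. A further 18 genes were above 0 in every library, 28 had a mean TPM (transcript abundance corrected for length and scaled to one fixed total per library) of at least 1 over the 12 libraries and 9 a mean of at least 10. The 10 highest genes held between 80.4% and 96.5% of the summed histone TPM of a library. By class, the highest genes were H1-2 (mean 137 TPM) for the linker histone H1, H2AC18 (190 TPM) and H2AC6 (38.7 TPM) for H2A, and H2BC5 (69.9 TPM) and H2BC12 (26.9 TPM) for H2B. The core histone classes H3 and H4 were far lower. H3C10 led H3 with a mean of 2.19 TPM and H4C11 led H4 with 8.60 TPM. The extended and other genes overlapped widely in level, with median means of 1.41 and 0.453 TPM.

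**Figure D1:**
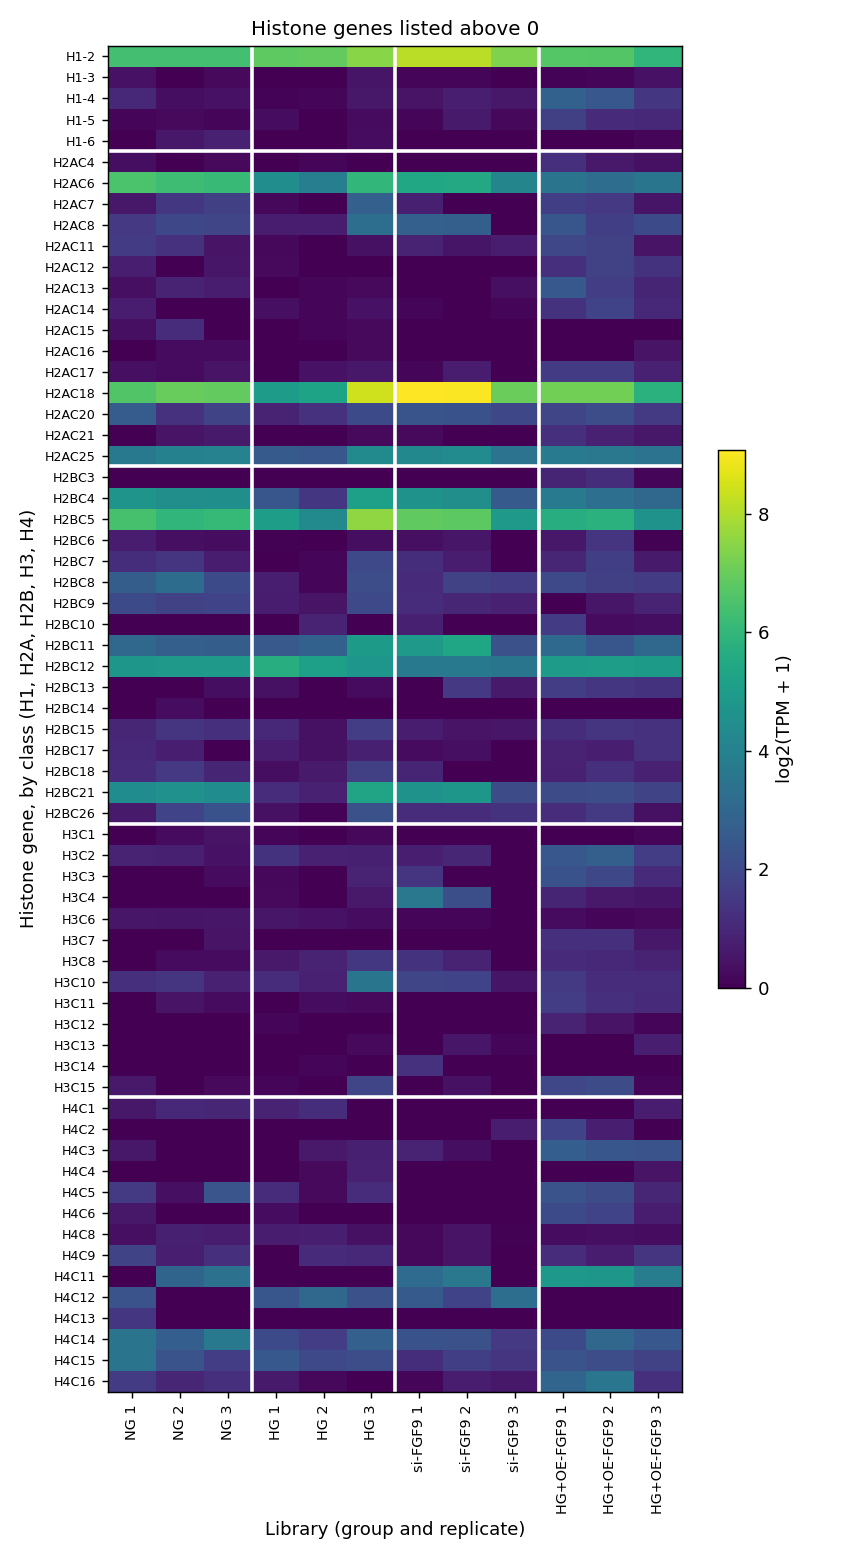
log2(TPM + 1) of the 64 histone genes listed above 0 in at least 1 library (rows, by class from H1 at the top to H4 at the bottom, separated by white lines) in the 12 libraries (columns, 3 per group). H1-2, H2AC18 and H2BC5 are bright in every library, while most H3 and H4 rows are dark, and among them H4C11 reaches its highest values (27.4 and 27.3 TPM) in HG+OE-FGF9 replicates 1 and 2.

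Several listed zeros fall on near-identical copies. H2AC19 has the same coding sequence as H2AC18, and H2BC12L shares 98.95% of its coding bases with H2BC12. The pairs H3C14 and H3C15, H4C11 and H4C12, and H4C14 and H4C15 are also identical over their coding sequence, so that the values of these 8 genes depend on how reads were divided within a pair. A further 10 genes shared at least one 100-base coding window with another member. Over the 58 genes with another member of the same class and coding length, the identical pairs included, the closest one matched at a median of 90.2% of bases. In addition, 16 histone genes overlapped another annotated gene, 8 of them on the same strand. How reads of shared or overlapping sequence were assigned is not given in the sources used here.

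The summed TPM of all 70 genes was even across the NG libraries, at 509, 492 and 489. In HG it was 287 and 260 in replicates 1 and 2 and 997 in replicate 3. In si-FGF9 it was 1148 and 1125 in replicates 1 and 2 and 389 in replicate 3. The HG+OE-FGF9 libraries held 495, 486 and 272. Replicate 3 of each of HG, si-FGF9 and HG+OE-FGF9 thus lay far from the other two of its group, above them in HG and below them in the others. Over all genes tested, HG replicate 3 correlated with HG replicates 1 and 2 at r = 0.951 and 0.926 and with the NG libraries at 0.942 to 0.955. The log2 ratio of the mean summed TPM was 0.05 between HG and NG and 0.84 between si-FGF9 and NG. Between HG+OE-FGF9 and HG it was −0.30. Without HG replicate 3, the first became −0.86 and the last 0.61, so neither direction held without that library. No test was made on these sums.

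The classes did not move alike. H1 was tight in NG at 82.3, 82.3 and 83.8 TPM, and all HG libraries (112, 117 and 179) and all si-FGF9 libraries (283, 280 and 162) lay above it. H2A ranged from 58.5 and 58.7 in the first HG replicates to 614 and 596 in the first si-FGF9 replicates, around 210, 225 and 213 in NG. H2B was 179, 161 and 156 in NG, and 96.1, 64.7 and 339 in HG. The 2 low classes followed another pattern. H4 summed to 57.9, 60.7 and 29.6 in HG+OE-FGF9 and to 15.7, 16.4 and 17.2 in HG, without overlap. In NG the H4 sums were 34.3, 20.0 and 32.2, all above HG and overlapping HG+OE-FGF9. It formed 10.9% to 12.5% of the histone TPM in HG+OE-FGF9 libraries and at most 6.8% in the other 9 libraries. H3 summed to 19.8, 18.04 and 8.69 in HG+OE-FGF9 and to 4.39, 3.07 and 17.8 in HG, which overlapped.

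**Figure D2:**
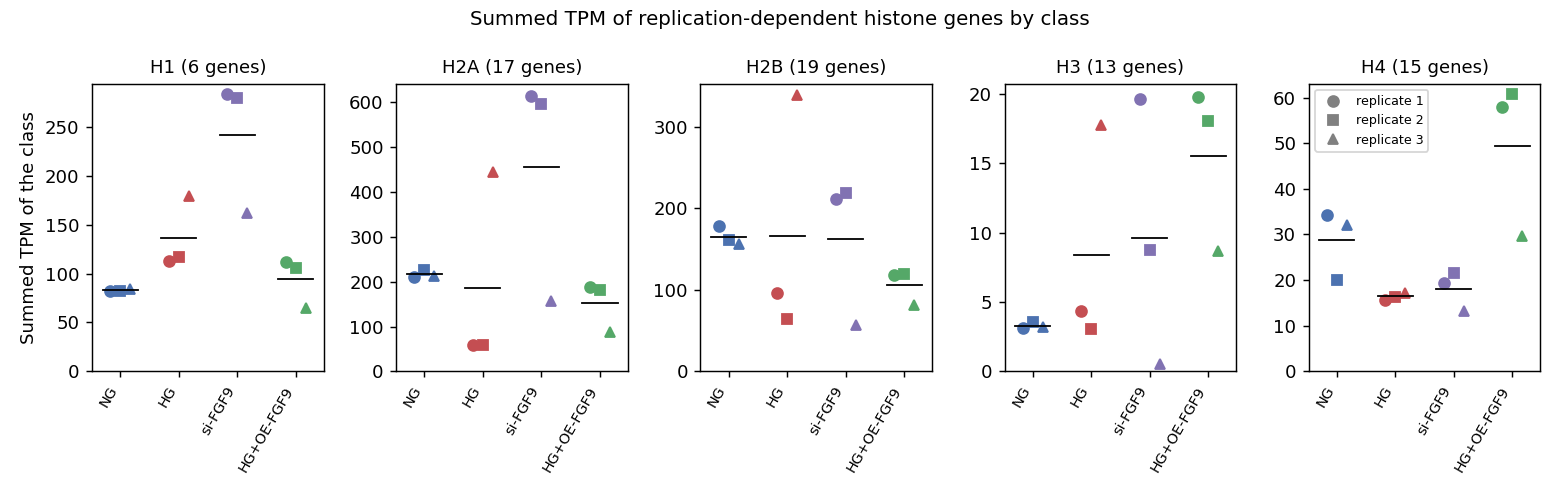
Summed TPM of the genes of each histone class (one panel per class, linear axis from 0) in the 12 libraries. Points are libraries, shapes the replicate number and lines the group means of 3; in H2A and H2B the triangle of HG (444 and 339 TPM) sits far above the other 2 HG libraries, and in H4 all HG+OE-FGF9 points lie above the HG points.

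The comparison of HG versus NG asks what high glucose did to these cells. Among the histone genes, H2AC6, H2BC8 and H4C14 were called lower in HG on TPM as deposited, by log2 differences of 1.15 to 1.61. None of them was called after scaling by the median of ratios or a correction for GC content. H1-2 and the main H2B gene, H2BC5, did not pass the call on TPM as deposited. A gene was called changed at a log2 fold change of at least 1 and an unadjusted p under 0.01 in limma on log2(TPM + 1), a scale that understates the change of low genes. Of the 70 genes, 38 reached a TPM of at least 1 in 3 libraries and were tested. In HG, 3 were called lower against a background of 22.7% of all 14639 genes tested, and 1 was called higher against 1.65%. The median log2 fold change of the 38 genes was −0.31, near that of all genes at −0.39. Scaling by the median of ratios, which sets the overall median near 0, gave 0 histone genes lower and 2 higher, H4C12 and H1-2, against backgrounds of 8.47% and 7.26%. After a correction for GC content 0 were called lower and 1 higher, against 3.33% and 3.73%, and that gene was H3C8, at 1.64, which was not called without the correction.

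H2AC6, an H2A gene at chr6:26124145-26139116, had 89.6, 75.8 and 68.2 TPM in NG and 21.1, 13.6 and 63.0 in HG. The groups did not overlap, but HG replicate 3 lay close to NG. Its log2 fold change was −1.51 ± 0.47 (SE), with a Benjamini-Hochberg adjusted p of 0.0194 from limma. H2BC8, an H2B gene, had 5.36, 8.32 and 3.07 TPM in NG and 0.69, 0.12 and 3.44 in HG, again with replicate 3 among the NG values. It fell by 1.61 ± 0.44 on the log2 scale (adjusted p = 0.0106, limma). H4C14 had 10.2, 5.61 and 11.8 TPM in NG and 3.07, 2.13 and 5.86 in HG. It fell by 1.15 ± 0.37 (adjusted p = 0.0219, limma), but the sum with its identical copy H4C15 differed by −0.88 and was not called.

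Without HG replicate 3, 7 of the 37 histone genes then tested were called lower, with H2AC25, H2BC4, H2BC9 and H2BC21 added. The share of all genes lower in that fit is not given here, and in the fit of all 12 libraries it was 22.7%. The 7 are therefore no result about the histone genes in particular. Without HG replicate 1 or 2, 0 were called in either direction. H2BC21 shows the size of that split, with 20.3, 23.4 and 20.4 TPM in NG, 1.23 and 0.79 in HG replicates 1 and 2, and 39.0 in replicate 3. H2BC4, which shares its promoter region with H2AC6, had 25.1, 21.3 and 22.0 TPM in NG and 4.45, 1.71 and 33.8 in HG. H2AC18 behaved the same way, at 96.7, 124 and 119 TPM in NG, 30.4 and 37.6 in HG replicates 1 and 2 and 343 in replicate 3. Each of these genes thus had HG libraries on both sides of NG. What set replicate 3 apart was not tested.

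H1-2, the main linker histone gene of these libraries, at chr6:26055787-26056428, was even in NG with 80.7, 81.3 and 82.4 TPM. In HG it had 112, 117 and 178 TPM, all above NG, and the difference of 0.70 ± 0.26 (SE, adjusted p = 0.0411, limma) stayed under the fold required, while after scaling by the median of ratios it was 1.21 and was called. H2BC12, an H2B gene annotated by its coding sequence alone, had 26.9, 29.4 and 28.3 TPM in NG and 49.5, 33.9 and 26.4 in HG, which overlapped. H2BC5 had 84.9, 61.9 and 67.0 TPM in NG and 32.2, 19.4 and 191 in HG, spread on both sides of NG.

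The comparison of si-FGF9 versus NG asks what the siRNA against FGF9 did in normal glucose. H1-2 was higher by 1.51 on the log2 scale, and H2BC12, H4C9 and H4C14 were lower by 1.25, 1.06 and 1.28. H4C12 was also called higher and is described with its identical copy H4C11. FGF9 itself was listed at 0 in the 9 libraries of NG, HG and si-FGF9 and at 3.34, 4.03 and 3.82 TPM in HG+OE-FGF9, so that the overexpression is visible in these values while the knockdown could not be checked. Of the 38 genes tested, 2 were called higher against a background of 5.36% and 3 lower against 42.2%. The median over the 38 genes was −0.20 and over all genes −0.79, so most genes tested were lower in these libraries. Scaling by the median of ratios gave 4 histone genes higher and 0 lower, against 18.9% and 17.8%, and the GC correction gave 2 higher (H1-2 and H3C8) and 1 lower (H2BC12), against 12.2% and 12.3%. NG samples serve both this comparison and that of HG versus NG.

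H1-2 had 283, 278 and 161 TPM in si-FGF9, against 80.7 to 82.4 in NG. All si-FGF9 libraries lay above NG, replicate 3 the least. The log2 fold change was 1.51 ± 0.26 (SE, n = 3 against 3, adjusted p = 0.000243, limma). It was also called under the correction for GC content, at 1.71. H1-2 was called in each fit that left out one library.

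H2BC12 had 11.7, 11.6 and 10.6 TPM in si-FGF9, against 26.9 to 29.4 in NG, and was among the tightest of the histone genes. The groups did not overlap, and the gene fell by 1.25 ± 0.19 (adjusted p = 0.000117, limma). It fell by 1.29 after the correction for GC content, while after scaling by the median of ratios it differed by −0.27 and was not called. H4C14 had 3.92, 3.81 and 1.81 TPM against 5.61 to 11.8 in NG and fell by 1.28 ± 0.37 (adjusted p = 0.00789, limma). H4C9, an H4 gene, had 0.14, 0.41 and 0 TPM against 2.62, 0.69 and 1.36, a level near the limit of the filter, and fell by 1.06 ± 0.34 (adjusted p = 0.0142, limma).

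H2AC18 reached the highest value of any histone gene in these libraries, with 541 and 522 TPM in si-FGF9 replicates 1 and 2. Replicate 3 had 126 TPM, just above the NG range of 96.7 to 124. With that spread, the log2 difference of 1.54 ± 0.81 (adjusted p = 0.109, limma) was not called, while after scaling by the median of ratios it was 2.56 and was called. H2BC11 showed the same split at 29.1, 41.0 and 3.76 TPM in si-FGF9, against 7.42, 5.72 and 5.46 in NG. H3C4 had 11.5, 3.50 and 0 TPM in si-FGF9 and 0 in all NG libraries, and did not reach the filter. H1-2 and H2AC18 together with the other top genes held 93.9% to 96.5% of the histone TPM in si-FGF9, while between 27 and 42 of the 70 genes were listed at 0. Those at 0 numbered 20 to 29 in the NG and HG libraries and 12 to 18 in HG+OE-FGF9. Over all genes, too, fewest reached a TPM of at least 1 in si-FGF9, at 11549 to 12013 against 12350 to 13949 in the other groups.

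The comparison of HG+OE-FGF9 versus HG asks what FGF9 overexpression did in high glucose. Here low histone genes of every class were higher, and none of the 9 genes with a mean of at least 10 TPM was called in limma on TPM as deposited. H1-4 and H1-5 of the linker histones, H2AC12 and H2AC14, H2BC13, H3C2, H3C3 and H3C11, and H4C3, H4C11 and H4C16 rose with an adjusted p under 0.05 (background 2.73%). Of the 38 genes tested, 12 were called higher against a background of 2.94%, the remaining one being H2AC11 (adjusted p = 0.0617, limma), and 1 was called lower against 2.67%. Of the 38, 13 passed the filter only through the HG+OE-FGF9 libraries, and 11 of the 12 genes called higher are among them, so this count was favoured by the filter. With no filter, 15 of the 64 genes above 0 were called higher, against 1.85% of 32451 genes, and 1 lower, against 1.08%.

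H4C3, an H4 gene at chr6:26103876-26104310, had 0, 0.54 and 0.76 TPM in HG and 5.54, 4.43 and 3.95 in HG+OE-FGF9. Its other libraries lay between 0 and 0.83 TPM, so that the HG+OE-FGF9 libraries stood above all 9 others. The log2 fold change was 2.01 ± 0.28 (SE, adjusted p = 0.0014, limma). H1-4 had 0.06, 0.11 and 0.50 TPM in HG and 6.15, 4.54 and 1.68 in HG+OE-FGF9, a rise of 1.97 ± 0.32 (adjusted p = 0.00392, limma). Replicate 3 was the lowest of its group but remained above the highest NG value of 1.08 TPM. H4C16, on chromosome 12, had 0.58, 0.14 and 0 TPM in HG and 6.86, 10.8 and 1.33 in HG+OE-FGF9, a rise of 2.30 ± 0.46 (adjusted p = 0.0111, limma). Its replicate 3 overlapped the NG values of 0.98 to 1.99 TPM.

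The H3 genes rose from low levels. H3C2, at chr6:26031650-26032060, had 1.52, 0.77 and 0.75 TPM in HG and 4.58, 5.70 and 2.14 in HG+OE-FGF9, without overlap, and rose by 1.30 ± 0.32 (adjusted p = 0.0245, limma). H3C3 had 0.14, 0 and 0.83 TPM in HG and 3.83, 2.94 and 1.18 in HG+OE-FGF9, a rise of 1.44 ± 0.39 (adjusted p = 0.0399, limma). H3C11 had 0, 0.23 and 0.16 TPM in HG and 2.15, 1.38 and 1.11 in HG+OE-FGF9. In each of the 3 genes HG+OE-FGF9 replicate 3 was the lowest of its group. Among H2A and H2B genes, H2AC12, H2AC14 and H2BC13 rose by 1.38, 1.06 and 1.26, all from HG values of at most 0.35 TPM to values of 1.05 to 2.51 TPM. H1-5 rose by 1.09, to 2.26, 1.18 and 1.03 TPM from at most 0.24 in HG.

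H4C11 and H4C12 have to be read as a pair. H4C11 was listed at 0 in all HG libraries and at 27.4, 27.3 and 12.9 TPM in HG+OE-FGF9, and was called higher. H4C12 was at 4.36, 7.09 and 3.73 TPM in HG and was listed at 0 in all HG+OE-FGF9 libraries, and was called lower. Their coding sequences are identical, and the gene that held the value switched within NG. NG replicate 1 listed 3.97 TPM for H4C12 and 0 for H4C11, while NG replicates 2 and 3 listed 6.62 and 9.69 TPM for H4C11 and 0 for H4C12. The sum of both was 4.36, 7.09 and 3.73 TPM in HG and 27.4, 27.3 and 12.9 in HG+OE-FGF9, without overlap. Fitted as one gene, the pair rose by 1.92 ± 0.35 (adjusted p = 0.00672, limma). Against NG the pair was not called, at −0.33 in HG (adjusted p = 0.467, limma) and 0.76 in si-FGF9 (adjusted p = 0.0693, limma), although H4C12 alone was called higher in both. With the identical pairs summed, 12 histone genes were called higher in HG+OE-FGF9 and 0 lower.

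**Figure D3:**
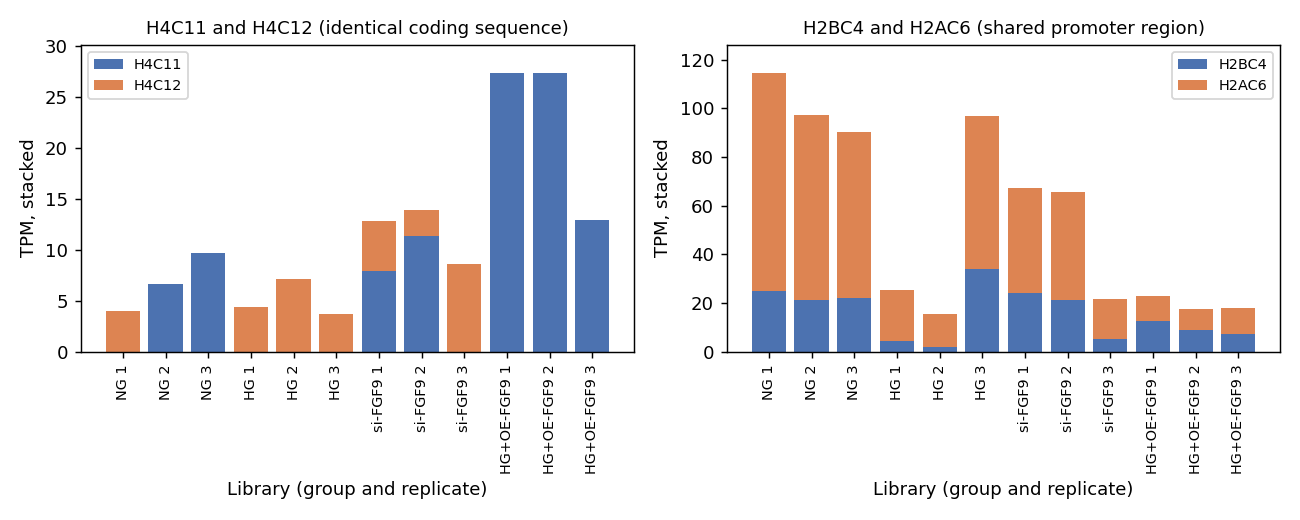
TPM of 2 gene pairs, stacked in each of the 12 libraries (bars from 0). On the left, H4C11 and H4C12, with identical coding sequences, carry the value in different libraries while their sum is highest in HG+OE-FGF9 replicates 1 and 2 (27.4 and 27.3 TPM); on the right, H2BC4 and H2AC6, with a shared promoter region, are high in NG, HG replicate 3 and si-FGF9 replicates 1 and 2.

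The abundant genes were not called higher. H1-2 had 103, 100 and 62.1 TPM in HG+OE-FGF9, all below HG, and its difference of −0.62 ± 0.26 (adjusted p = 0.145, limma) was not called. H2AC6 had 10.2, 8.49 and 10.7 TPM, below all other libraries, and differed by −1.36 ± 0.47 (adjusted p = 0.0906, limma). It was not called, but it was called lower after the correction for GC content, at −1.12, and in the fits that left out HG replicate 2 or si-FGF9 replicate 3. H2BC21 had 3.36, 3.39 and 2.61 TPM, H2BC5 49.9, 54.8 and 24.6, and H2BC12 30.7, 33.2 and 30.3, and each lay within its HG range or overlapped it. The 60 genes outside the 10 highest summed to 96.8, 93.0 and 49.4 TPM in HG+OE-FGF9 against 26.5, 25.3 and 74.4 in HG, so that HG replicate 3 reached the HG+OE-FGF9 values in this sum. Histone genes at a TPM of at least 1 numbered 42, 41 and 29 in HG+OE-FGF9 and between 14 and 26 in the other 9 libraries. Over all genes, 13008, 13098 and 13236 reached that level in HG+OE-FGF9 and between 11549 and 13949 in the other 9 libraries.

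By transcript annotation, the genes called higher were counted without a test. Of the 15 genes called higher with no filter, 14 were among the 38 without an extended transcript and 1, H4C16, among the 26 with one. All HG+OE-FGF9 libraries stood above the 9 other libraries in 14 histone genes (21.9% of the 64 above 0), against 6.4% of all genes above 0. These 14 comprised 14 of the 38 without and 0 of the 26 with an extended transcript. They included H2AC4, H2AC13, H2AC17, H2BC3, H3C7 and H4C6, which were too low for the filter. The 26 genes with an extended transcript are also higher in level, and the 32 genes annotated by their coding sequence alone are among those without one, so the annotation cannot be told apart from level or from how completely a gene is annotated.

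**Figure D4:**
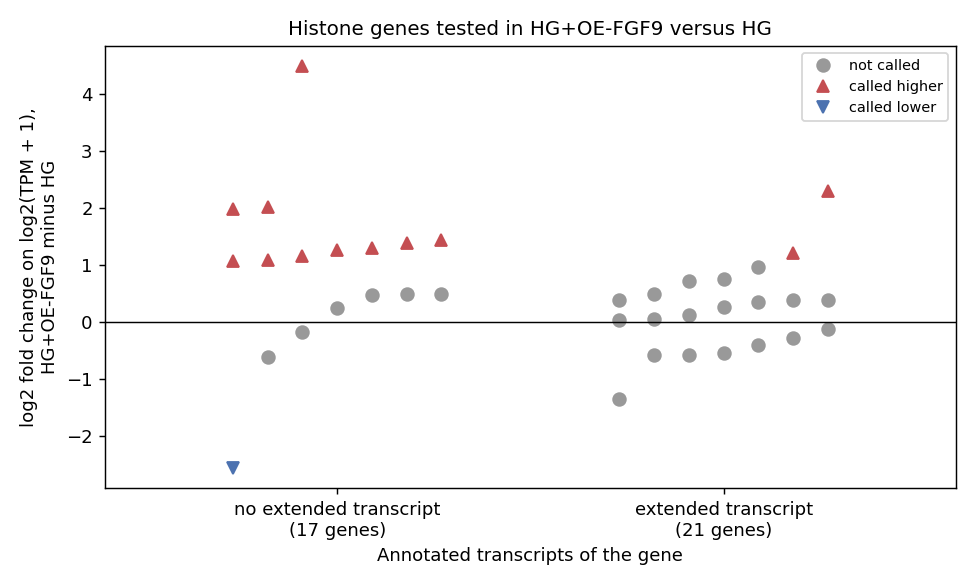
log2 fold change (HG+OE-FGF9 minus HG, on log2(TPM + 1)) of the 38 histone genes tested, split by whether a spliced transcript, or one at least 100 bases past the stem-loop, is annotated; horizontal scatter has no meaning. Red triangles are the 12 genes called higher, 11 of which passed the filter only through the HG+OE-FGF9 libraries, so the split is a description; the blue triangle is H4C12 and the highest red triangle is H4C11.

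The count of genes called higher changed with single libraries, in part because fewer genes then passed the filter. Without HG replicate 2 it was 8, with all 38 genes still tested. It was 13 when HG replicate 3 was left out. With replicate 1 or 2 of HG+OE-FGF9 left out it was 5, of 32 histone genes that still passed the filter, and without replicate 3 it was 7 of 33. H1-4, H2BC13, H3C2, H4C11 and H4C16 were called in each fit that left out one library. This list also reflects the filter. H4C3, for example, reached 1 TPM only in the 3 HG+OE-FGF9 libraries (5.54, 4.43 and 3.95), so it was not tested when one of them was left out.

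Other RNAs that carry no poly(A) tail were also higher in these libraries. Small nuclear, nucleolar and Cajal body RNAs, which guide splicing and RNA modification, summed to 16536, 16630 and 5275 TPM in HG+OE-FGF9 and to 207 to 833 TPM in the other 9 libraries. RN7SK, a nuclear RNA that restrains transcription elongation, was at 4759, 4673 and 1462 TPM against 17.8 to 150. The sum of the 60 histone genes outside the 10 highest was also lowest in replicate 3 within HG+OE-FGF9, though single genes such as H2AC12, at 1.40, 2.39 and 1.49 TPM, did not follow that order. The part of these RNAs in the histone values was not tested.

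**Figure D5:**
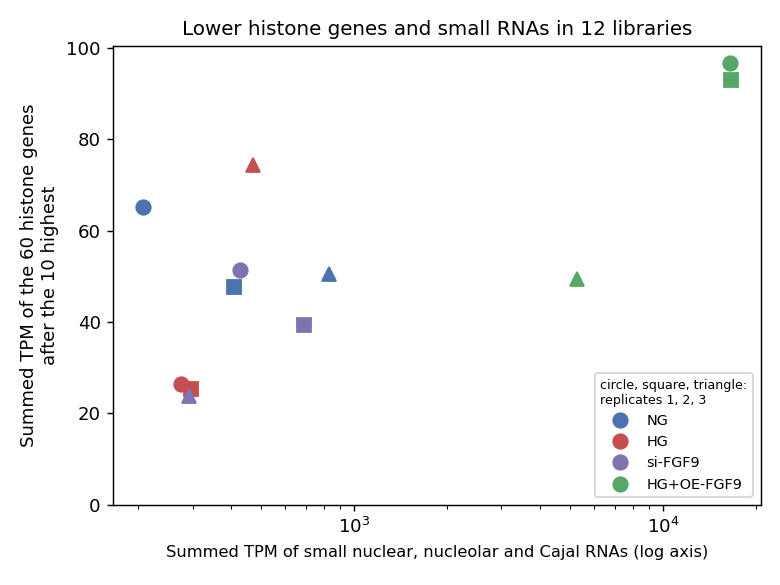
Summed TPM of the 60 histone genes outside the 10 highest (vertical, linear axis from 0) against summed TPM of small nuclear, nucleolar and Cajal body RNAs (horizontal, log axis) in 12 libraries; colours are groups and shapes replicates. HG+OE-FGF9 replicates 1 and 2 lie at the upper right (96.8 and 93.0 TPM), replicate 3 lies lower, at 49.4 TPM, and also to the right of the 9 other libraries, and HG replicate 3 is high (74.4 TPM) without high small RNAs.

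Genes that make, process or receive histones were not called beside them. In HG+OE-FGF9 versus HG, 0 of 37 S phase genes tested, 0 of 25 genes of histone mRNA transcription and 3′ processing, 0 of 21 histone chaperones and 0 of 12 replication-independent histones were called by limma in either direction (MCM2 and SLBP stand on 2 of these lists). Over all genes tested 2.94% were called higher and 2.67% lower, so counts of 0 in lists this short lie near that share. At an unadjusted p under 0.05 there were 4, 4, 3 and 4 such genes in these lists, and the share of all genes at that p is not given here. HG samples serve both this comparison and that of HG versus NG. PCNA, the sliding clamp of DNA replication, had 186, 125 and 117 TPM in HG and 122, 122 and 190 in HG+OE-FGF9, which overlapped. SLBP had 49.6, 33.9 and 76.5 TPM in HG and 38.5, 37.4 and 61.6 in HG+OE-FGF9. The median log2 fold change of the S phase list was −0.11, beside −0.13 for all genes. Replication-independent H3-3B and H2AZ1 stayed at 268 to 424 and 398 to 710 TPM in these 6 libraries, far above any H3 gene of the replication-dependent set.

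In HG versus NG, 3 S phase genes were higher and 3 lower, 6 of the 25 processing genes were lower and 0 higher, and 4 of 21 chaperones were lower and 0 higher, beside 22.7% of all genes lower and 1.65% higher. NPAT, the coactivator of histone gene transcription, had 3.99, 4.39 and 4.01 TPM in NG and 0.99, 0.47 and 2.33 in HG, and fell by 1.26 (adjusted p = 0.00271, limma). CPSF2 and TUT7, which act in 3′ cleavage and decay of histone mRNA, fell by 1.45 and 1.27, and CASP8AP2, another factor of histone gene transcription, fell by 1.23. Among the chaperones ATRX and ASF1A, which deposit or carry H3 and H4, fell by 2.12 and 1.33, and among the S phase genes the cyclins CCNE2 and CCNA2 fell by 1.48 and 1.41. After scaling by the median of ratios NPAT, CPSF2 and TUT7, at −0.87, −0.99 and −0.79, and CASP8AP2, ASF1A and CCNA2, at −0.78, −0.85 and −0.91, were not called. ATRX and CCNE2, at −1.65 and −1.07, were still called with it. Under that scaling 7 S phase genes were higher and 1 lower, and 5 processing genes were higher and 0 lower. Chaperones gave 0 higher and 1 lower, beside 7.26% of all genes higher and 8.47% lower. After the correction for GC content 0 genes of these 3 lists were lower, beside 3.33% of all genes. ATRX was then at −0.99, CCNE2 at −0.35, NPAT at −0.15 and CASP8AP2 at −0.10.

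In si-FGF9 versus NG, 19 of 37 S phase genes were lower and 2 higher, 12 of 25 processing genes were lower and 2 higher, 13 of 21 chaperones were lower and 0 higher, and among replication-independent histones 1 was lower and 1 higher, beside 42.2% of all genes lower and 5.36% higher. SLBP had 82.5, 65.4 and 67.1 TPM in NG and 24.1, 28.9 and 24.6 in si-FGF9, and fell by 1.43 (adjusted p = 0.00047, limma). PCNA had 135, 114 and 119 TPM in NG and 49.2, 57.8 and 60.3 in si-FGF9, and fell by 1.13 (adjusted p = 0.000442, limma). H2AX, the variant phosphorylated at DNA breaks, had 16.7, 21.8 and 24.7 TPM in NG and 56.2, 51.2 and 59.2 in si-FGF9, and rose by 1.37 (adjusted p = 2.35e-05, limma), but was at 0.97 and not called after the correction for GC content. Among the S phase genes CDK2, a cyclin-dependent kinase, fell by 2.70 and CCNA2 by 2.34, and among the chaperones RBBP4 and ATRX fell by 2.92 and 2.60. With scaling by the median of ratios CDK2, CCNA2, RBBP4 and ATRX were still called, at −1.72, −1.34, −1.92 and −1.80. After the correction for GC content CDK2 and RBBP4 were still called, at −2.13 and −1.49. H3-3A fell by 1.46, and after the correction for GC content it differed by 0.07. With that correction, 2 S phase genes were lower and 3 higher, and 0 processing genes were lower and 3 higher, beside 12.3% of all genes lower and 12.2% higher. Chaperones called lower numbered 3 with it and 4 after scaling by the median of ratios, beside 12.3% and 17.8% of all genes. CCNA2 and ATRX, at −0.96 and −0.95, were not called with the correction for GC content. After scaling by the median of ratios, 4 S phase genes were lower and 7 higher, and 4 processing genes were lower and 6 higher, beside 17.8% and 18.9% of all genes. SLBP and PCNA, at −0.42 and −0.10, were then no longer called.

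Of the 17 markers of other cell types, 4 were at 0 in all libraries and 2 passed the filter, CD68 and COL1A1. CD68 was at 108 to 159 TPM in all libraries, and COL1A1 fell by 1.03 in HG and by 1.15 in si-FGF9 against NG. COL1A1 was at −0.59 and −0.35 and not called after scaling by the median of ratios. With the correction for GC content it was at −1.21 and −1.19 and still called. Of 19 renal epithelial markers 13 were tested, and in HG+OE-FGF9 versus HG 3 of them were lower and 0 higher, beside 2.67% and 2.94% of all genes. PAX8, a kidney epithelial transcription factor, had 60.9 to 79.1 TPM in NG and HG and 19.7, 21.3 and 38.0 in HG+OE-FGF9, and fell by 1.31 versus HG (adjusted p = 0.00307, limma). The cadherin CDH6 fell by 1.34 in the same comparison. Against NG, 2 renal markers were lower in HG and 0 higher, beside 22.7% and 1.65% of all genes. These were the cadherins CDH2 and CDH6, at −1.55 and −1.30. In si-FGF9 3 were lower and 1 higher, beside 42.2% and 5.36%, and CDH2 and EPCAM fell by 2.28 and 1.74. After scaling by the median of ratios 1 renal marker was lower and 1 higher in HG, beside 8.47% and 7.26% of all genes. In si-FGF9 1 was lower and 4 higher with that scaling, beside 17.8% and 18.9%. After the correction for GC content 0 were lower in HG, beside 3.33% of all genes, with CDH2 at −0.92 and CDH6 at −0.26. EPCAM in si-FGF9 was at −0.90 and not called with that correction, nor was it after scaling, at −0.79. The part of these markers in the histone values was not tested. The brush border receptors LRP2 and CUBN and the phosphate transporter SLC34A1, markers of proximal tubule cells, were at or near 0. These 3 were picked after their values were seen. AQP1, ANPEP, GGT1, ALPL and SLC5A2 of the same list are not given here, so nothing is concluded on the identity of the cells.

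Some divergent partners differed widely in level and others did not. In 5 of the 11 H2A and H2B pairs the means over the 12 libraries were more than 3-fold apart. H2AC25 had a mean of 12.6 TPM and its partner H2BC26 1.55, while H2BC11 had 12.7 and its partner H2AC11 0.988. H2BC21 had 14.02 and H2AC20 2.81. By contrast H2BC8 and H2AC8 had means of 2.84 and 3.23, and H2AC1 and H2BC1 were both at 0. The higher partner was the H2A gene in some pairs and the H2B gene in others. In the pair of H2BC4 and H2AC6, NG means were 22.8 ± 1.99 and 77.8 ± 10.8 TPM (SD, n = 3), and HG+OE-FGF9 means were 9.62 ± 2.64 and 9.76 ± 1.13 TPM.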

How the data were processed

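For each of the 12 HK2 libraries the deposited table lists TPM by Ensembl gene, as computed by the authors, and 0 columns were left unused. The submitters' processing notes name Bowtie 0.12.2 and the mouse build mm8 although the identifiers are human; how TPM were computed, the annotation and the strand setting are not given in the sources used here. TPM keep no depth, so the depth and counting error of each library are unknown.

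The tests planned for counts were replaced by the one planned for TPM: log2(TPM + 1) was fitted with limma 3.58.1 (R 4.3.3), with a variance trend, all 12 libraries in 1 fit and the group as the term. The filter asked for TPM ≥ 1 in 3 libraries, and Benjamini-Hochberg adjusted p-values were computed over all of them. The fit was tested on simulated data. Alternatives were no filter, a pseudocount of 0.1, the 6 libraries of a comparison, the replicate number as a block, an adjusted p under 0.05, median-of-ratios scaling, TPM without short noncoding and mitochondrial RNA, a correction for GC content (natural spline, 5 degrees of freedom, GC known for 97% of genes tested), each library left out and, chosen after the data were seen, identical pairs summed.

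Named were the 3 highest genes of each class, genes called with an adjusted p under 0.05, those at 0 throughout, a fixed set of reference genes (H2AX, H2AZ1, H3-3A, H3-3B, SLBP, NPAT, PCNA) and the leading called genes of 6 lists (replication-independent histones, histone mRNA transcription and 3′ processing, histone chaperones, S phase, renal epithelial and other cell type markers). H2AC4, H2AC8, H2AC11, H2AC13, H2AC17, H2AC20, H2BC3, H2BC9, H2BC11, H2BC21, H2BC26, H3C7, H3C8, H3C14, H3C15, H4C6, MCM2, CD68, LRP2, CUBN, SLC34A1, RN7SK and FGF9 were named after their values were seen. A gene that the rule names is not reported here. The members and lists were chosen with earlier results of these data known. Coordinates and transcripts are those of GENCODE 29 on GRCh38, in which 4 of the 70 genes were found by an older symbol; promoters are RefSeq sequences on GRCh38.p14.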

Additional observations from a re-analysis of the deposited data

How the results depend on the processing

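Counts of histone genes called moved by more than 1.5 times under the following alternatives. For HG versus NG, the 1 gene called higher became 0 with no filter on low values, with only the 6 libraries of the comparison, without short noncoding and mitochondrial RNA and with identical pairs summed, and 2 with median-of-ratios scaling. The 3 called lower became 1 with no filter and without short noncoding and mitochondrial RNA, and 0 with the 6 libraries, with median-of-ratios scaling and with GC correction. For si-FGF9 versus NG, the 2 called higher became 1 with no filter, with the 6 libraries, without short noncoding RNA and with identical pairs summed, and 4 with median-of-ratios scaling. The 3 called lower became 7 at an adjusted p under 0.05, 0 with median-of-ratios scaling and 1 with GC correction. The log2 ratio of the mean summed TPM moved from 0.84 to 1.86 with median-of-ratios scaling. For HG+OE-FGF9 versus HG, the 12 called higher stayed within 1.5 times under these alternatives, and the 1 called lower became 2 with GC correction and 0 with identical pairs summed. In si-FGF9 versus NG, GC correction, with or without the block, turned the direction of H3-3A to 0.074, NPAT to 0.23, TUT7 to 0.13 and CDH6 to 0.56, and median-of-ratios scaling turned CDH6 to 0.0053. The cause was not tested.

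With one library left out, genes called higher ranged from 0 to 1 and lower from 0 to 7 for HG versus NG, from 1 to 2 and from 1 to 5 for si-FGF9 versus NG, and from 5 to 13 and from 1 to 2 for HG+OE-FGF9 versus HG. The log2 ratios of summed TPM ranged from −0.86 to 0.37, from 0.61 to 1.20 and from −0.62 to 0.61, and the first and last reversed without HG replicate 3. A lone omitted library leaves 2 in its group.

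Samples of the same replicate number did not deviate together: the correlations of their deviations were 0.075, 0.089 and −0.163 for HG and NG, 0.075, −0.044 and 0.171 for si-FGF9 and NG, and −0.139, 0.248 and 0.188 for HG+OE-FGF9 and HG. With the replicate number as a block, 1 histone gene was lower in HG versus NG, 2 were higher and 2 lower in si-FGF9 versus NG, and 12 were higher and 1 lower in HG+OE-FGF9 versus HG. The block with GC correction gave 0 lower, 1 lower and 11 higher. With 3 libraries per group and no known depth, zeros and values under 1 TPM cannot be given a counting error.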
